A study of Rattus norvegicus with 16 samples.

Results

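AMPA and kainate receptors are the ionotropic glutamate receptors that carry fast excitatory transmission, and their subunits were followed here in rat dentate gyrus after passive avoidance training. The subunit genes were Gria1 to Gria4 for AMPA receptors and Grik1 to Grik5 for kainate receptors. Every probe set that the platform annotation gave to 1 of these 9 symbols was taken. All 9 genes were represented, by 16 of the 8740 probe sets that were not controls, and no probe set shared between several symbols named a member. Of the 16 probe sets, 10 belonged to AMPA subunits and 6 to kainate subunits. No probe sequence was used here, so the part of each transcript that a probe set reads is not given. In these array names the suffix _s_at marks a probe set whose probes may match several related sequences.

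AMPA receptors are tetramers of GluA1 to GluA4, the products of Gria1 to Gria4. They open rapidly upon glutamate release, and their number at the synapse is raised in long-term potentiation. GluA2 sets calcium permeability: editing of its pre-mRNA at the Q/R site by the enzyme ADARB1 makes receptors that hold GluA2 nearly impermeable to calcium. Kainate receptors are tetramers in which GluK1, GluK2 and GluK3 can form channels alone, while the high-affinity subunits GluK4 and GluK5 need one of these as partner. In the hippocampal formation kainate receptors are best known at mossy fibre synapses, which the granule cells of the dentate gyrus make onto CA3 neurons.

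RNA of rat dentate gyrus was hybridised to 16 single-colour Affymetrix RGU34A arrays. There were 3 naive arrays, 3 arrays of the 6 h group and 2 each of the 0 h, 2 h, 3 h, 12 h and 24 h groups. All labels, those of naive samples included, describe the rats as trained in passive avoidance, a task in which an animal learns to withhold a punished response; naive is read here as untrained, the other 6 groups are called trained, and the labels do not say from when the hours count. Strain, sex, age, any treatment and the number of animals per array are not given in the labels, so p-values measure the spread between arrays, which may be technical. Intensities are given after each array was scaled to the same trimmed mean, and differences are on the log2 scale with values below 5.05 set to that lowest level. Transcripts were measured in whole tissue, where fewer cells of a type and less RNA per cell cannot be told apart.

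Before scaling, the trimmed mean per array ran from 33.3 (12 h replicate 1) to 170.3 (24 h replicate 2). At 2 h it was 72.6 and 56.6 and at 12 h 33.3 and 115.7, against 112.6 to 142.5 in naive arrays. Its correlation with the tested subunit probe sets, on log2 scales, ran from -0.69 (X17184_at of Gria1) to 0.45 (Grik5). The 3'/5' ratio of the beta-actin controls, a measure of RNA integrity, lay above all naive arrays in 12 of 13 trained arrays. It was 1.96 and 2.69 at 2 h and 2.40 and 2.80 at 12 h, against 1.49 to 1.70 in naive arrays. Of 12 granule neuron markers 6 were measured. Calb1, Neurod1, Neurod2, Bdnf and Penk were above the level used for testing and Tdo2 was at the lowest level on 14 of 16 arrays, while Prox1, Dsp and C1ql2 were not among the named probe sets. Summed over 7 of 9 choroid plexus markers the intensity was 345 to 839 at 2 h and 404 to 519 at 12 h, against 2229 to 5408 in naive arrays, and over 9 of 10 interneuron markers it was 1754 to 1871 at 2 h and 1914 to 2373 at 12 h, against 1658 to 2763. Over the 6 granule neuron markers it was 742 to 781 at 2 h and 684 to 817 at 12 h, against 646 to 777 in naive arrays. For astrocyte markers (7 of 8) the sum was 7967 to 9616 at 2 h and 8133 to 10361 at 12 h, against 7101 to 8356, and for microglia markers (5 of 6) 228 to 245 and 221 to 300.3, against 278 to 339. The 2 h and 12 h ranges of the pyramidal neuron, oligodendrocyte and oligodendrocyte precursor sums overlapped the naive ones. At other hours the choroid plexus sum was 305 to 438 at 3 h and 266 to 302 at 24 h, the oligodendrocyte sum 2614 to 2874 at 24 h, against 4169.8 to 5691 in naive arrays, and the microglia sum 235 to 258 and the astrocyte sum 9036 to 9350.2 at 0 h. The pyramidal neuron sum was 915 to 919 at 24 h, against 709 to 912 in naive arrays, and the other ranges at 0 h, 3 h, 6 h and 24 h overlapped the naive ones. Over 16 arrays, the correlation of each marker sum with Gria1 M36418_s_at was between -0.43 (interneuron) and 0.20 (choroid plexus). The part of these measures in the subunit values was not tested, apart from a fit with the actin ratio.

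For 5 of the tested probe sets the mean intensity of the group was highest at 2 h and lowest at 12 h, by 1.35 to 2.62 on the log2 scale. They were M36418_s_at and S56679_s_at of Gria1, M36419_s_at of Gria2, M36420_s_at of Gria3 and X59996mRNA_s_at of Grik4. These are all the tested subunit probe sets with the suffix _s_at, and none without it had both extremes at these hours. The share of all 6220 tested probe sets with these extremes was not counted. Whether the pattern is particular to the subunits is therefore not known. Testing required an intensity above 16.9 on 2 or more arrays, which 11 of the 16 probe sets met, 7 of AMPA and 4 of kainate subunits; 8 of the 11 exceeded it on every array. Gria4, Grik1 and Grik3 were not tested. None of the 11 passed limma's test (Benjamini-Hochberg adjusted p under 0.05 over 6220 probe sets) in any of the 7 comparisons with naive or in either F test. The share of all 6220 probe sets that passed was 0% in every one of these tests but that of 2 h against naive, where it was 0.0161%, a single probe set of Bckdha, an enzyme of branched-chain amino acid breakdown that was named after its value was seen.

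**Figure D1:**
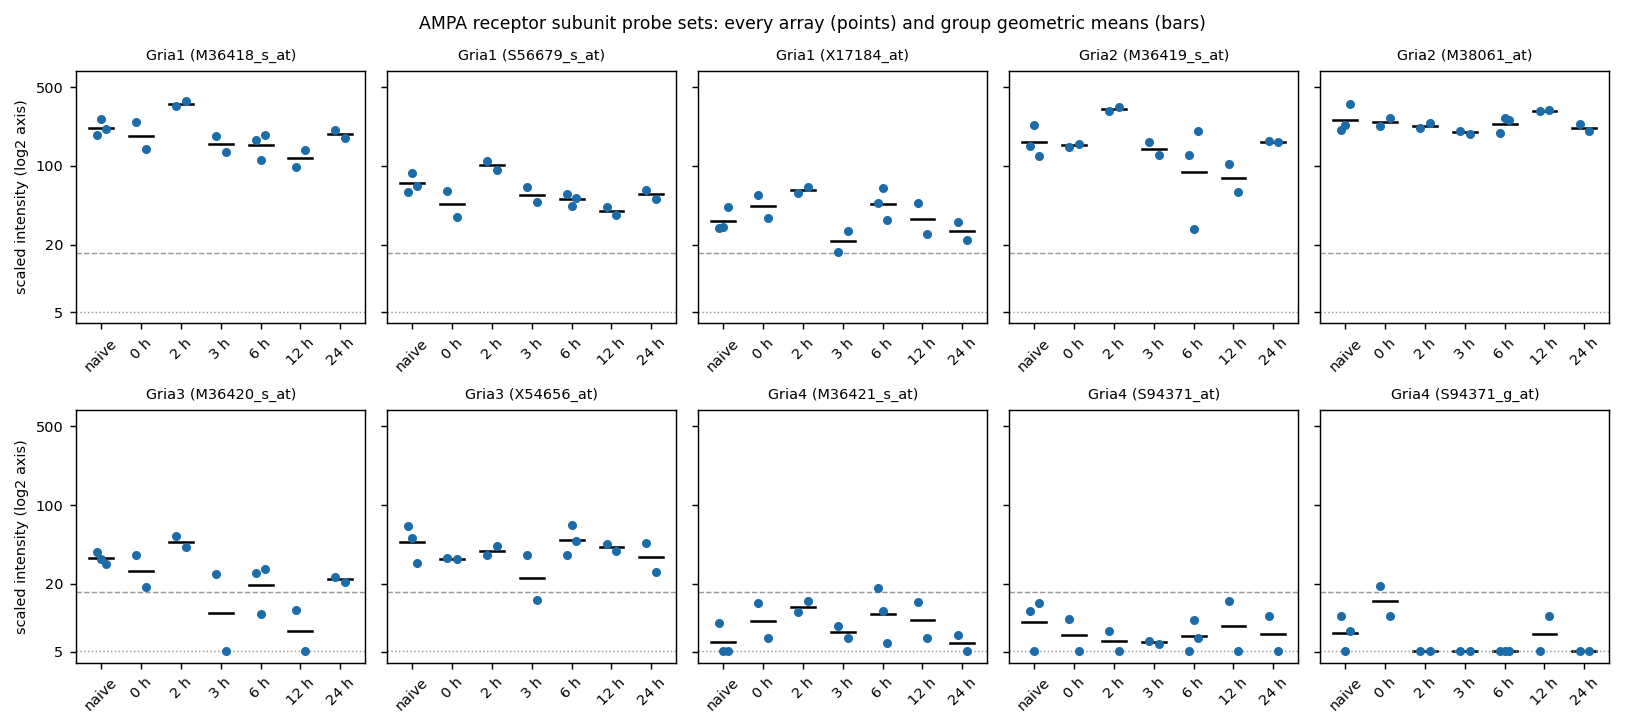
Scaled intensity (log2 axis) of the 10 AMPA subunit probe sets on each array, as points, with the geometric mean of each group as a bar; the dashed line is the level used for testing (16.9) and the dotted line the lowest level (5.05), at which lower values are drawn. Both 2 h arrays of Gria1 M36418_s_at (337 and 375) and of Gria2 M36419_s_at (304 and 336) lie above all other arrays, while Gria2 M38061_at shows no such peak and Gria4 lies below the dashed line on nearly all arrays.

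Gria1 encodes GluA1, the subunit whose synaptic insertion accompanies long-term potentiation, and had 3 probe sets. M36418_s_at read 186, 262 and 211 on naive arrays, 244 and 142 at 0 h, 337 and 375 at 2 h, 183 and 132 at 3 h, 169.7, 113 and 186 at 6 h, 98.6 and 138 at 12 h and 209.8 and 178 at 24 h. Both 2 h arrays lay above all other 14 arrays, and both 12 h arrays lay below every naive array. The log2 difference from naive was 0.71 (SE 0.28, 95% confidence interval 0.11 to 1.31, limma adjusted p = 0.59) at 2 h and -0.90 (SE 0.28, 95% confidence interval -1.50 to -0.30, limma adjusted p = 0.342) at 12 h, and with the actin ratio as a covariate these were 0.85 and -0.71. S56679_s_at read 58.7, 87.0 and 66.4 on naive arrays, 59.3 and 35.0 at 0 h, 111 and 91.9 at 2 h, 65.1 and 47.4 at 3 h, 56.6, 44.2 and 51.7 at 6 h, 43.0 and 36.6 at 12 h and 61.3 and 50.9 at 24 h. It followed the first probe set closely (Pearson r = 0.88 over 16 arrays), with the 2 h arrays above and the 12 h arrays below every naive array, and with 0 h replicate 2 lowest of all. Its difference from naive was -0.61 (SE 0.29, limma adjusted p = 0.972) at 0 h, 0.54 (SE 0.29, limma adjusted p = 0.677) at 2 h and -0.81 (SE 0.29, limma adjusted p = 0.383) at 12 h. The 0 h difference was -0.99 without 0 h replicate 1 and -0.23 without 0 h replicate 2. With the actin ratio as a covariate the 3 differences were -0.20, 0.88 and -0.35.

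The remaining Gria1 probe set, X17184_at, shared the 2 h peak but not the low at 12 h. It read 28.2, 28.5 and 43.4 on naive arrays, 55.4 and 34.4 at 0 h, 57.3 and 64.5 at 2 h, 17.3 and 26.2 at 3 h, 46.4, 63.7 and 32.9 at 6 h, 46.8 and 24.6 at 12 h and 31.4 and 21.8 at 24 h. Both 2 h arrays were above every naive array, as were 0 h replicate 1 and 6 h replicates 1 and 2, and the 12 h arrays lay on either side of the naive ones. For X17184_at the difference was 0.90 (SE 0.38, limma adjusted p = 0.613) at 2 h and 0.053 (SE 0.38, limma adjusted p = 0.974) at 12 h, and with the actin ratio as a covariate that at 2 h was 0.46. Its correlation with the other Gria1 probe sets was 0.24 and 0.27, and with the log2 trimmed mean of the array before scaling it was -0.69, against 0.17 for M36418_s_at. Ordered by group mean, M36418_s_at ran 2 h, naive, 24 h, 0 h, 3 h, 6 h and 12 h. Only the steps from 2 h to naive and from 6 h to 12 h exceeded the pooled SD within groups (0.33 on the log2 scale).

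Gria2 encodes GluA2, and its 2 probe sets disagreed. M36419_s_at read 148, 233 and 122 on naive arrays, 148 and 157 at 0 h, 304 and 336 at 2 h, 162 and 124 at 3 h, 126, 27.6 and 203 at 6 h, 104 and 58.8 at 12 h and 166 and 162 at 24 h. Both 2 h arrays were above all others and both 12 h arrays below all naive ones, but 6 h ranged from 27.6 to 203 within 1 group. Relative to naive it was 0.99 (SE 0.55, 95% confidence interval -0.19 to 2.16, limma adjusted p = 0.697) at 2 h, -0.86 (SE 0.50, limma adjusted p = 0.603) at 6 h and -1.04 (SE 0.55, limma adjusted p = 0.537) at 12 h. The 6 h difference was -0.013 without 6 h replicate 2 and -1.45 without 6 h replicate 3, and the 12 h difference was -0.63 without 12 h replicate 2. With the actin ratio as a covariate the 2 h difference was 1.90 and the 12 h difference turned positive, at 0.19. M38061_at read 210.0, 230.1 and 350.3 on naive arrays, 227 and 267 at 0 h, 217 and 239 at 2 h, 206 and 193 at 3 h, 194, 266 and 256 at 6 h, 308 and 311 at 12 h and 234 and 204 at 24 h. It varied 1.82-fold over the 16 arrays, against 12.2-fold for M36419_s_at, and its 2 h arrays lay within the naive range.

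The difference from naive for M38061_at was -0.17 (SE 0.23, 95% confidence interval -0.66 to 0.32, limma adjusted p = 0.892) at 2 h and 0.27 (SE 0.23, 95% confidence interval -0.22 to 0.76, limma adjusted p = 0.694) at 12 h, with both 12 h arrays within the naive range. The correlation between the Gria2 probe sets was -0.38 over 16 arrays and -0.30 after group means were removed. As their signs were opposite at 2 h and 12 h, no direction is given for Gria2 as a gene.

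Gria3 encodes GluA3, a partner of GluA2 in many synaptic receptors. By M36420_s_at it read 38.0, 33.4 and 29.9 on naive arrays, 35.9 and 18.6 at 0 h, 52.8 and 42.4 at 2 h, 24.4 and 2.99 at 3 h, 25.0, 10.8 and 27.2 at 6 h, 11.7 and 1.91 at 12 h and 23.2 and 20.9 at 24 h. The 2 h arrays were above every naive array, all 9 arrays of 3 h, 6 h, 12 h and 24 h were below every naive array, and 3 h replicate 2 and 12 h replicate 2 were under the lowest level. Set against naive, the difference was 0.49 (SE 0.58, limma adjusted p = 0.871) at 2 h, -1.60 (SE 0.58, limma adjusted p = 0.998) at 3 h and -2.13 (SE 0.58, limma adjusted p = 0.28) at 12 h. With an offset of 16 in place of a lowest level, the 3 h and 12 h differences were -0.84 and -1.16. At 12 h it was -1.52 without 12 h replicate 2 and -0.38 with the actin ratio as a covariate, which gave 1.78 at 2 h. The second probe set, X54656_at, read 65.5, 51.1 and 30.9 on naive arrays, 34.2 and 32.9 at 0 h, 36.0 and 43.3 at 2 h, 36.0 and 14.2 at 3 h, 35.8, 67.1 and 48.2 at 6 h, 45.5 and 39.4 at 12 h and 46.0 and 25.6 at 24 h. Of the trained arrays only 6 h replicate 2 exceeded the naive range and only 3 h replicate 2 and 24 h replicate 2 were below it. Its difference was -0.25 (SE 0.42, limma adjusted p = 0.915) at 2 h, -1.05 (SE 0.42, limma adjusted p = 0.998) at 3 h and -0.15 (SE 0.42, limma adjusted p = 0.917) at 12 h. Both Gria3 probe sets were below naive on average at 3 h, and for M36420_s_at and X54656_at those differences were -0.46 and -0.38 without 3 h replicate 2, and -2.73 and -1.72 without 3 h replicate 1.

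Gria4 encodes GluA4, which in the hippocampus is best known from interneurons, and none of its 3 probe sets was tested. M36421_s_at ran from 4.02 to 18.4 with a median of 7.72. S94371_at ran from 1.68 to 14.2 with a median of 6.42, and S94371_g_at from 1.30 to 19.2 with a median of 3.28. They lay at or under the lowest level on 3, 6 and 11 of 16 arrays. For S94371_g_at this covered every array of the 2 h, 3 h, 6 h and 24 h groups, and the highest value was that of 0 h replicate 1.

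**Figure D2:**
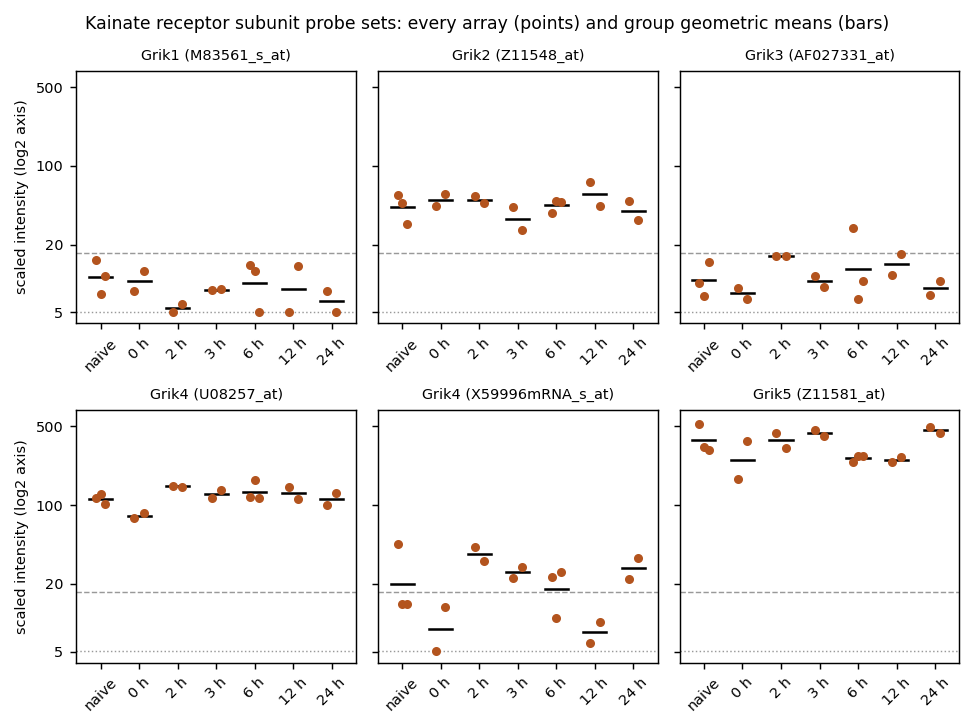
Scaled intensity (log2 axis) of the 6 kainate subunit probe sets on each array, as points, with group geometric means as bars and the level used for testing (dashed) and the lowest level (dotted) as lines. Grik4 is low at 0 h by both probe sets, Grik5 is lowest on 0 h replicate 1 (170.2), and Grik1 and Grik3 lie below the dashed line on all arrays but 1.

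Among the kainate subunits that can form channels alone, Grik2, which encodes GluK2, was the only one tested. Z11548_at read 55.6, 47.0 and 30.7 on naive arrays, 44.0 and 56.5 at 0 h, 53.4 and 47.1 at 2 h, 42.9 and 26.6 at 3 h, 37.8, 49.1 and 47.3 at 6 h, 71.4 and 43.9 at 12 h and 48.4 and 32.8 at 24 h. The trained and naive arrays overlapped in every group, with 71.4 on 12 h replicate 1 as the highest value. Over all trained groups the difference from naive was 0.064 (SE 0.24, 95% confidence interval -0.44 to 0.56, limma adjusted p = 1). Grik1 (GluK1) and Grik3 (GluK3) were below the level for testing, at 1.90 to 14.7 and 6.60 to 28.1. Grik3 exceeded it on 1 array, 6 h replicate 1, and read 15.7 and 15.8 at 2 h, against 9.06, 7.02 and 13.9 in naive arrays.

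Grik4 encodes GluK4, a high-affinity subunit that is abundant in CA3 and dentate gyrus. U08257_at read 115, 125 and 102 on naive arrays, 76.3 and 84.8 at 0 h, 148 and 145 at 2 h, 116 and 137 at 3 h, 118, 167 and 116 at 6 h, 146 and 114 at 12 h and 101 and 128 at 24 h. Both 0 h arrays were below all other arrays, and both 2 h arrays were above every naive array. Relative to naive, U08257_at differed by -0.50 (SE 0.23, 95% confidence interval -0.99 to -0.010, limma adjusted p = 0.972) at 0 h and 0.37 (SE 0.23, 95% confidence interval -0.12 to 0.86, limma adjusted p = 0.716) at 2 h. X59996mRNA_s_at read 44.8, 13.3 and 13.2 on naive arrays, 4.11 and 12.4 at 0 h, 42.7 and 32.0 at 2 h, 22.7 and 28.2 at 3 h, 22.9, 9.85 and 25.4 at 6 h, 6.00 and 9.19 at 12 h and 22.0 and 34.2 at 24 h. It exceeded the level for testing on 9 arrays, and naive replicate 1 stood well above the other naive values. Its difference was -1.33 (SE 0.58, limma adjusted p = 0.972) at 0 h, 0.90 (SE 0.58, limma adjusted p = 0.729) at 2 h and -1.42 (SE 0.58, limma adjusted p = 0.45) at 12 h, and without naive replicate 1 these were -0.74, 1.48 and -0.83. With an offset of 16 in place of a lowest level they were -0.64, 0.51 and -0.66, and without 0 h replicate 1 the 0 h difference was -0.68. At 12 h the Grik4 probe sets disagreed in sign (0.18 for U08257_at), while at 0 h and 2 h their signs matched.

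Grik5 encodes GluK5, the other high-affinity subunit and the most widespread partner of GluK2. Z11581_at read 527, 325 and 308 on naive arrays, 170.2 and 369 at 0 h, 437 and 324 at 2 h, 460.0 and 411 at 3 h, 239, 272 and 273 at 6 h, 239 and 266 at 12 h and 497 and 434 at 24 h. All 6 h and 12 h arrays lay below every naive array, and 0 h replicate 1 was the lowest of all. The difference from naive was -0.58 (SE 0.29, limma adjusted p = 0.985) at 0 h, -0.52 (SE 0.26, limma adjusted p = 0.541) at 6 h, -0.57 (SE 0.29, limma adjusted p = 0.524) at 12 h and 0.31 (SE 0.29, limma adjusted p = 1) at 24 h. Without 0 h replicate 1 the 0 h difference was -0.024, and without 0 h replicate 2 -1.14. Naive replicate 1 read well above the other naive arrays, and without it the differences were -0.34 at 0 h, -0.28 at 6 h, -0.32 at 12 h and 0.56 at 24 h, while without naive replicate 3 the 24 h difference was 0.17. With the actin ratio as a covariate those at 0 h and 12 h were -0.29 and -0.24. Grik5 had the strongest correlation with the actin ratio among the 11 probe sets (r = -0.56 over 16 arrays, on log2 scales).

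The order of the groups by mean differed between probe sets, and few neighbours in it were further apart than the pooled SD within groups. From high to low it was 2 h, naive, 24 h, 3 h, 6 h, 0 h and 12 h for S56679_s_at of Gria1, where the steps from 2 h to naive and from naive to 24 h exceeded that SD (0.28). It was 2 h, 24 h, naive, 0 h, 3 h, 6 h and 12 h for M36419_s_at of Gria2, where only the step below 2 h exceeded it (0.78), and 2 h, naive, 0 h, 24 h, 6 h, 3 h and 12 h for M36420_s_at of Gria3, where only the step from 6 h to 3 h did (0.74). The 12 h group stood highest for M38061_at of Gria2 and for Grik2, the 24 h group for Grik5 and the 6 h group for X54656_at of Gria3. For U08257_at of Grik4 the order was 2 h, 6 h, 12 h, 3 h, 24 h, naive and 0 h, with only the step from naive to 0 h beyond the SD (0.20), and for Grik5 it was 24 h, 3 h, 2 h, naive, 6 h, 12 h and 0 h, with only the step from naive to 6 h beyond it (0.36). X17184_at of Gria1 and Grik2 had no step larger than their SD.

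Set side by side over the hours, the 11 tested probe sets had their highest median at 2 h and their lowest at 12 h. The low at 12 h depended on the filter for testing. With the filter at the 60th percentile the median was lower at 0 h than at 12 h, as the last section gives. At 2 h, 9 of 11 were above naive, as were 52.7% of all 6220. The median log2 difference was 0.49 for the 11 probe sets and 0.027 for all 6220. An unadjusted p under 0.05 was reached by 2 of 11 (M36418_s_at and X17184_at of Gria1, both higher), where 7.67% of all probe sets reached it. At 12 h, 7 of 11 were below naive, as were 44.1% of all 6220, with a median of -0.57 for the 11 probe sets and 0.061 for all 6220. Here 4 of 11 had an unadjusted p under 0.05 (2 of Gria1, M36420_s_at of Gria3 and X59996mRNA_s_at of Grik4, all lower), against 10.1% of all probe sets. The other 4 of 11 were above naive at 12 h: X17184_at of Gria1 (0.053), M38061_at of Gria2 (0.27), Grik2 (0.38) and U08257_at of Grik4 (0.18).

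At 0 h, 9 of 11 were below naive, as were 52.7% of all 6220 (median -0.38 for the 11 probe sets and -0.021 for all 6220). An unadjusted p under 0.05 was found for 3 of 11 (S56679_s_at of Gria1 and both Grik4 probe sets), against 5% of all. At 3 h all 7 AMPA probe sets were below naive and 3 of 4 kainate probe sets above, with medians of -0.49 and 0.18, against -0.074 for all 6220, of which 58.7% were below 0. Both Gria3 probe sets, 2 of 11, had an unadjusted p under 0.05, against 4.31% of all. At 6 h the median was -0.15 for the 11 probe sets and -0.026 for all 6220, and none of the 11 reached an unadjusted p of 0.05, against 9.41% of all. At 24 h it was -0.17 for the 11 probe sets and -0.0044 for all 6220, again with none of 11, against 4.44%. Averaged over the 6 hours it was -0.19 for the 11 probe sets and -0.012 for all 6220, with none of 11 against 5.35%. The comparisons share the same 3 naive arrays. In the average over hours the AMPA median was -0.26 and the kainate median -0.063.

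**Figure D3:**
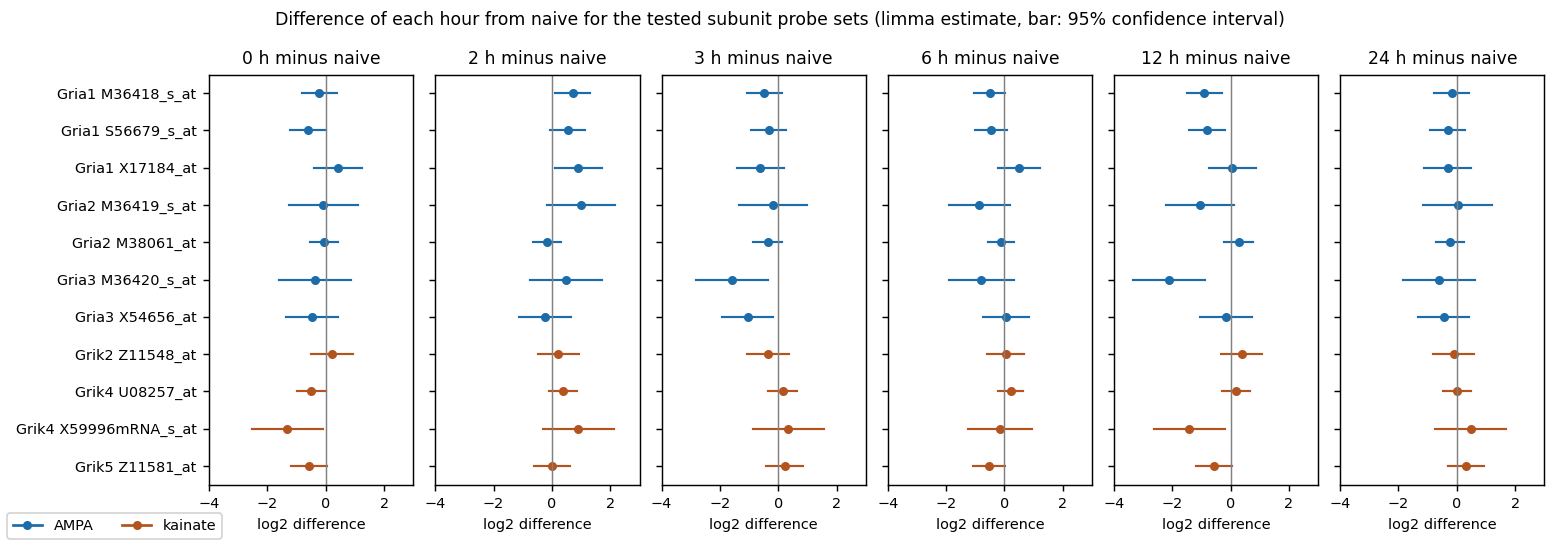
Log2 difference of each hour from naive (x axis) for the 11 tested probe sets (rows), as limma estimates with 95% confidence intervals, AMPA in blue and kainate in orange. At 2 h the intervals of Gria1 M36418_s_at and X17184_at lie above 0, and at 12 h those of Gria1 M36418_s_at and S56679_s_at, Gria3 M36420_s_at and Grik4 X59996mRNA_s_at lie below it, and none of these passed after adjustment.

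The F test over the 7 groups asked whether any group differed, and that over the 6 trained times compared these with each other. Both came from the same fit to all 16 arrays, so the naive arrays still entered the estimate of spread in the second. Over the 7 groups, 6 of the 11 probe sets had an unadjusted p under 0.05, where 10.3% of all 6220 did. Over the trained times it was 8 of 11, where 10.8% of all did. Of the 8 probe sets that exceeded the testing level on every array, 6 were among them. The smallest p over the trained times was that of Gria1 M36418_s_at (limma adjusted p = 0.248), followed by X59996mRNA_s_at of Grik4 (limma adjusted p = 0.289), S56679_s_at of Gria1 (0.321) and M36420_s_at of Gria3 (0.34). M38061_at of Gria2, X54656_at of Gria3 and Grik2 were not among the 8, with limma adjusted p of 0.622 to 0.735. Probe sets of 1 gene are not independent, and all share the same arrays. The 8 of 11 became 4 without 2 h replicate 1, where 9.72% of all probe sets had such a p. The count was 5 without 2 h replicate 2 (8.30% of all) or without 24 h replicate 1 (8.50%). It was also 5 with the actin ratio as a covariate (8.81%) or without a variance trend (10.4%). With no filter it was 6 of 16, against 10.7% of all probe sets. With 1 value per gene it was 3 of 6 genes, against 11.3% of all genes. The 6 of 11 over the 7 groups became 4 without 2 h replicate 1 (8.82% of all), without 24 h replicate 2 (7.75%) or with the actin ratio (8.30%). With 1 value per gene that count was 4 of 6 genes, against 10.8% of all genes.

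Between the hours themselves, the 12 h minus 2 h difference was -1.61 (SE 0.31, limma adjusted p = 0.0785) for M36418_s_at and -1.35 (SE 0.31, limma adjusted p = 0.117) for S56679_s_at of Gria1. It was -2.62 (SE 0.64, limma adjusted p = 0.132) for M36420_s_at of Gria3 and -2.03 (SE 0.61, limma adjusted p = 0.26) for M36419_s_at of Gria2. For X59996mRNA_s_at of Grik4 it was -2.31 (SE 0.63, limma adjusted p = 0.197). M38061_at of Gria2 had a value of the opposite sign, 0.44 (SE 0.25, limma adjusted p = 0.608), as had X54656_at of Gria3 (0.10) and Grik2 (0.16). The difference was -0.84 for X17184_at of Gria1, -0.18 for U08257_at of Grik4 and -0.58 for Grik5. These differences were fitted on all 6220 probe sets for each of the 15 pairs of hours after the values had been seen, and the adjustment covers 1 pair at a time. For the _s_at probe sets this pair holds the highest and the lowest group mean. Their SE and adjusted p take no account of that choice.

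M36418_s_at and S56679_s_at of Gria1, M36419_s_at of Gria2 and M36420_s_at of Gria3 had pairwise correlations of 0.68 to 0.88 over the 16 arrays. After removal of group means these were 0.41 to 0.73. All 4 carry the suffix _s_at, and so does X59996mRNA_s_at of Grik4. Whether the probes of these probe sets match more than 1 subunit transcript was not tested. The correlation between probe sets of the same gene was -0.38 for Gria2, 0.34 for Gria3 and 0.32 for Grik4. Grik4 X59996mRNA_s_at correlated with Grik5 (0.76) and Gria3 X54656_at with Grik2 (0.72). The other probe sets of these genes had lower values, 0.18 for Grik4 U08257_at with Grik5 and 0.23 for Gria3 M36420_s_at with Grik2. All values come from the same 16 arrays and share their scaling.

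**Figure D4:**
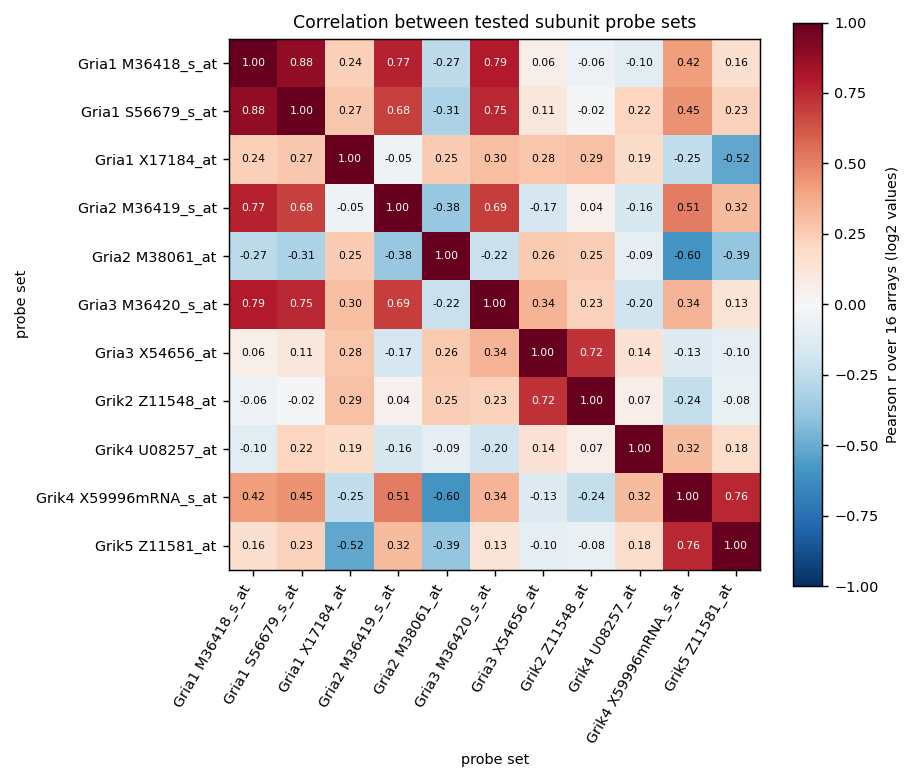
Pearson correlation over 16 arrays (log2 scaled intensity) between the 11 tested probe sets, in the order of the genes on both axes. A block of high values joins Gria1 M36418_s_at and S56679_s_at, Gria2 M36419_s_at and Gria3 M36420_s_at (0.68 to 0.88), and Gria2 M38061_at lies apart from it (-0.38 to -0.22).

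For the probe set of highest mean of each tested gene, the 3 most similar probe sets of other genes were ranked by Pearson r over the 16 arrays. For Gria1 M36418_s_at they were Rfc1 (0.85), Ppp1r12a (0.84) and Gnao1 (0.84). For Gria2 M38061_at they were Selenop (0.85), Ptprz1 (0.85) and Ssb (0.84), and for Gria3 X54656_at Bdkrb1 (0.89), Bicd2 (0.88) and Nr3c2 (0.86). The Grik2 probe set was closest to Ghrh (0.85), Sox13 (0.82) and Slc22a13 (0.81), that of Grik4, U08257_at, to Acvr2b (0.89), Dkc1 (0.87) and Bin1 (0.86), and that of Grik5 to Golgb1 (0.86), Cebpb (0.85) and Tle5 (0.84). These are the highest of 5122 to 5124 named probe sets and carry no test.

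A list of 34 genes for proteins that bind, traffic, cluster or edit these receptors was examined beside the subunits. Probe sets existed for 17 of these genes and 15 genes were tested, by 23 probe sets. None of the 23 passed limma's test in either direction in any comparison. An unadjusted p under 0.05 was reached by 4 of 23 for trained against naive, 1 higher and 3 lower, where 5.35% of all probe sets reached it. At 0 h it was 1 (lower), against 5% of all, at 2 h 3 (2 higher, 1 lower), against 7.67%, and at 3 h 4 (all lower), against 4.31%. At 6 h it was 4 (all lower), against 9.41%, at 12 h 3 (1 higher, 2 lower), against 10.1%, and at 24 h 2 (1 higher, 1 lower), against 4.44%. An unadjusted F test p under 0.05 was reached by 2 of 23 over the trained times, against 10.8% of all. Over the 7 groups it was also 2 of 23, against 10.3%. Adarb1, the enzyme that edits the GluA2 Q/R site, had the smallest F test p of the list (adjusted p = 0.226 over the trained times). It read 56.5, 69.1 and 63.6 on naive arrays, 33.3 and 28.5 at 0 h, 107 and 105 at 2 h, 38.3 and 54.1 at 3 h, 62.6, 44.2 and 41.7 at 6 h, 39.2 and 31.3 at 12 h and 49.2 and 49.3 at 24 h. Both 2 h arrays were above all other arrays, and both 0 h and both 12 h arrays were below every naive array. Adarb1 differed from naive by -1.03 at 0 h, 0.75 at 2 h and -0.84 at 12 h (SE 0.27 each, limma adjusted p = 0.793, 0.501 and 0.342). Its correlation over the 16 arrays was 0.85 with S56679_s_at of Gria1, 0.69 with M36418_s_at, 0.53 with M36419_s_at of Gria2 and -0.27 with M38061_at of Gria2. With X17184_at of Gria1 it was 0.38, and with M36420_s_at and X54656_at of Gria3 0.52 and 0.020. For the kainate probe sets it was -0.13 with Grik2, 0.51 with U08257_at and 0.61 with X59996mRNA_s_at of Grik4, and 0.29 with Grik5. For the other probe sets of the list no such correlations are given, so these values have no background beside them. The arrays do not measure editing.

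Nsf, the ATPase that binds GluA2 and keeps AMPA receptors at the synapse, averaged -0.99 (SE 0.43) and -0.81 (SE 0.33) against naive by its 2 probe sets, each with a limma adjusted p of 0.922. By AF091834_at it read 120.0, 128 and 164 on naive arrays, 134 and 59.6 at 0 h, 123 and 104 at 2 h, 97.3 and 45.8 at 3 h, 68.0, 31.4 and 66.1 at 6 h, 104 and 32.7 at 12 h and 109 and 104 at 24 h. All trained arrays but 2 were below every naive array. Dlg4 (PSD-95), the main scaffold of the excitatory postsynapse, averaged -0.56 (SE 0.24, adjusted p = 0.924) and Dlg1 (SAP97), which binds GluA1, -0.71 (SE 0.43, adjusted p = 0.981). The pentraxin Nptx2, which clusters AMPA receptors and is induced by activity, averaged 0.43 (SE 0.16, adjusted p = 0.922) by S82649_s_at, and 0.32 by S82649_r_at. Cnih2, an auxiliary subunit of AMPA receptors, averaged -0.083 (SE 0.13) and the related delta subunit gene Grid1 -0.16 (SE 0.30). The averages of the other tested genes of the list are not given here. Over all 23 probe sets of the list the median for trained against naive was -0.083.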

How the data were processed

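Transcript levels in rat dentate gyrus were measured on 16 Affymetrix RGU34A arrays in 7 groups, taken from the sample descriptions. The deposited values are linear intensities of single probe sets on single arrays. No label names the software, background method or normalization behind them, which is not given in the sources used here. Of 8799 probe sets, 59 were controls. All arrays were brought to 1 trimmed mean (2% trimmed, 105), a lowest level was set at the 20th percentile of all values (5.05), and values were converted to log2. Probe sets above the pooled 40th percentile (16.9) on at least 2 arrays were tested (6220). Gene names came from the platform annotation, updated through RefSeq gene IDs; 7006 probe sets had 1 symbol, 308 several and 1426 were not listed.

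The model over the 7 groups came from lmFit and eBayes with a variance trend (limma 3.58.1, R 4.3.3), and p-values were adjusted over all 6220 probe sets by the Benjamini-Hochberg method. The code was tested on simulated data. Every probe set of the 9 genes is named, with genes of the receptor partner and marker lists and the 3 most similar probe sets per gene. The members and lists were chosen with earlier results of these data known. Alternatives covered normalization, lowest level, filter, variance model, array weights, a replicate block, the actin ratio, fits of only the groups compared, 1 value per gene, and leaving out each array. No sequences of the probes or promoters of Gria1 to Gria3 were used here.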

Additional observations from a re-analysis of the deposited data

How the results depend on the processing

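No subunit probe set passed the threshold in any comparison under the 12 alternatives or without each of the 16 arrays. The lowest limma adjusted p over 1988 refitted differences was 0.15, and 71 of these differences, none of them past the threshold, turned sign. The 1988 leave out the fits of only the groups compared and of 1 value per gene. With the actin ratio as a covariate, which overlaps with the comparisons against naive, the median over the tested probe sets was 0.0010 for trained against naive, -0.18 at 0 h, 0.65 at 2 h, 0.023 at 6 h and -0.24 at 12 h. In that fit M36419_s_at of Gria2 at 12 h was 0.19 and M36420_s_at of Gria3 -0.38. An offset of 16 gave medians of -0.23 at 0 h and 0.35 at 2 h, and the mean of probe sets per gene 0.31 at 2 h. The filter at the 60th percentile gave -0.23 at 0 h and -0.15 at 12 h, where no filter gave -0.13; these settings test other members. Without 1 array at a time the median was -0.33 to -0.098 for trained against naive, -0.46 to -0.18 at 0 h, 0.35 to 0.63 at 2 h, -0.45 to -0.098 at 3 h, -0.45 to -0.15 at 6 h, -0.71 to -0.32 at 12 h and -0.34 to -0.052 at 24 h. The arrays behind these ends were naive replicate 3 (lowest for trained, 6 h and 12 h), naive replicate 1 (highest at 12 h), naive replicate 2 (highest at 24 h), 0 h replicate 1 (highest for trained), 0 h replicate 2, 2 h replicate 1, 3 h replicate 2 (highest at 0 h, lowest at 2 h, highest at 3 h) and 24 h replicate 1 (lowest at 24 h). The cause of these shifts was not tested. Whether the replicate numbers pair the arrays could not be told. Between arrays of different groups, deviations from group means correlated at -0.20 to 0.19 (median 0.025) in 43 same-numbered pairs. In the 66 other pairs it was -0.19 to 0.18 (median -0.024). Values above 0.1 occurred in 12 of 43 and 6 of 66 pairs. In groups of 2 arrays the deviations mirror each other, so these values cannot decide the question. With the replicate block the medians were -0.21 for trained against naive, 0.53 at 2 h and -0.63 at 12 h, and no subunit passed. The number of arrays, 2 in most groups, limits the precision, and signal near the lowest level limits Gria4, Grik1 and Grik3.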
